A study of Mus musculus with 8 samples.

Results

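A hairpin against Prmt1 (sh-Prmt1) was compared with a scrambled hairpin (sh-scramble) by RNA sequencing, with 2 libraries in each group. The genes followed were every protein_coding and lncRNA gene in the 4 gene-level tables, 36672 of 60237 genes, after 245 sex-linked genes had been left out. Of these, 19855 were protein_coding genes and 16817 were long non-coding RNA (lncRNA) genes. The series holds 8 libraries, and the other 4 belong to a separate genotype experiment that is not used here. Its title concerns PRMT1 in WNT-driven colorectal cancer, and the knockdown comparison asks which transcripts differ when PRMT1 is depleted. The labels name intestinal organoids from mouse for both groups, with polyA RNA, and give no further allele, agent, time or dose. All 60237 gene identifiers in the tables are nevertheless human and 0 are mouse, so human symbols are used throughout. Which culture was sequenced is therefore not established here, and neither the hairpin sequences nor the number of hairpins is stated.

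PRMT1 is the main type I protein arginine methyltransferase: it transfers methyl groups from S-adenosylmethionine to arginine and leaves asymmetric dimethylarginine. Its known substrates include histone H4 at chromatin and a large set of RNA-binding proteins with arginine and glycine repeats, such as hnRNP proteins, EWSR1 and G3BP1. Other type I enzymes share some of these substrates, and PRMT5 makes the symmetric form of the mark.

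To follow one gene across libraries, its level is given as CPM, counts scaled to TMM-adjusted library size. To compare genes with each other, TPM is used, which also divides by transcript length. The libraries held between 39608249 and 53193449 estimated counts. In CPM, the 3 counts taken as the detection floor were worth 0.0564 to 0.0757, and floors and bounds cover counting error only. Replicates of one group correlated at 0.986 in log CPM across genes and libraries of different groups at 0.961 to 0.965. Whether the replicates came from separate cultures is not stated, so the p-values rest on a library-to-library spread that may be only technical. A gene was called when edgeR's quasi-likelihood test, adjusted by Benjamini-Hochberg across every tested gene, gave an adjusted p under 0.05 (here, edgeR adjusted p).

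Epithelial markers of the intestine were present in all 4 libraries. EPCAM, an epithelial adhesion molecule, stood at 460 and 486 TPM in the controls and at 717 and 677 after knockdown. CDX2, the intestinal lineage transcription factor, stood at 20.6 and 19.1 TPM in the controls and at 21 and 20.2 after knockdown. S100P, a calcium-binding protein gene that mouse lacks, reached 448 and 464 TPM in the controls and 831 and 780 after knockdown. The stem cell gene OLFM4 and the enteroendocrine gene CHGA, in contrast, stayed below 0.16 TPM in every library and did not pass the filter on low counts.

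PRMT1, the targeted gene, was low in both sh-Prmt1 libraries. PRMT1 stood at 37.0 and 34.2 CPM in sh-scramble and at 2.99 and 3.35 CPM in sh-Prmt1. Both sh-Prmt1 libraries lay far below both controls, an 11.2-fold fall (log2 fold change -3.48 ± 0.12, SE, n = 2; edgeR adjusted p = 1.01e-06).

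Several other arginine methyltransferases fell. Of the 10 tested members of the family, 6 fell, PRMT1 included, and 0 rose (PRMT2 rose in 7 of 14 alternatives), against 23.5% of all tested protein_coding genes called lower and 24.7% called higher. PRMT3, a type I enzyme of the cytoplasm that binds the small ribosomal subunit, went from 63.6 and 66.7 CPM to 22.9 and 25.5 (log2 fold change -1.43 ± 0.09, SE; edgeR adjusted p = 7.24e-06). PRMT5, the main symmetric enzyme and the most abundant member per length, went from 155 and 196 TPM to 96.3 and 91.1 TPM (-0.98 ± 0.10 from counts; edgeR adjusted p = 8.16e-05). PRMT6, a nuclear type I enzyme, went from 24.7 and 24.8 CPM to 13.1 and 17.0 (-0.71 ± 0.13; edgeR adjusted p = 0.00158). Control and knockdown libraries did not overlap for any of these 3 genes. METTL23 (-0.32) and the mitochondrial enzyme gene NDUFAF7 (-0.29) were also called, with edgeR adjusted p of 0.0178 and 0.0469. Neither of the 2 calls held throughout: METTL23 lost its call in 3 of 14 alternatives, on the TPM scale and without sh-scramble replicate 2 (adjusted p = 0.108) or sh-Prmt1 replicate 2 (0.0578), and NDUFAF7 in 8 of 14, among them those without sh-scramble replicate 1 (0.231), sh-Prmt1 replicate 1 (0.146) or sh-Prmt1 replicate 2 (0.072).

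Members that did not pass stood as follows. PRMT2, a weakly active type I enzyme and nuclear receptor coactivator, went from 25.7 and 17.3 CPM in the controls to 27.3 and 30.3 (log2 fold change 0.42, edgeR adjusted p = 0.0582), and it was called higher in 7 of the 14 alternatives, among them limma-voom (0.46, adjusted p = 0.0412) and the fit without sh-scramble replicate 1 (0.68, adjusted p = 0.000197). PRMT7, the monomethylating enzyme, stood at 0.28 (edgeR adjusted p = 0.121) and at -0.01 with an effective length offset, so its sign was not fixed. PRMT9, a symmetric enzyme with a splicing factor substrate, was at -0.06 and at 0.05 on the TPM scale. CARM1, the coactivator methyltransferase also known as PRMT4, was scarce, with control values of 0.405 and 0.814 TPM and knockdown values of 0.798 and 0.556, and its groups overlapped. PRMT8, which is known as a brain enzyme, had 0, 2, 5 and 1 counts and was not tested.

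**Figure D1:**
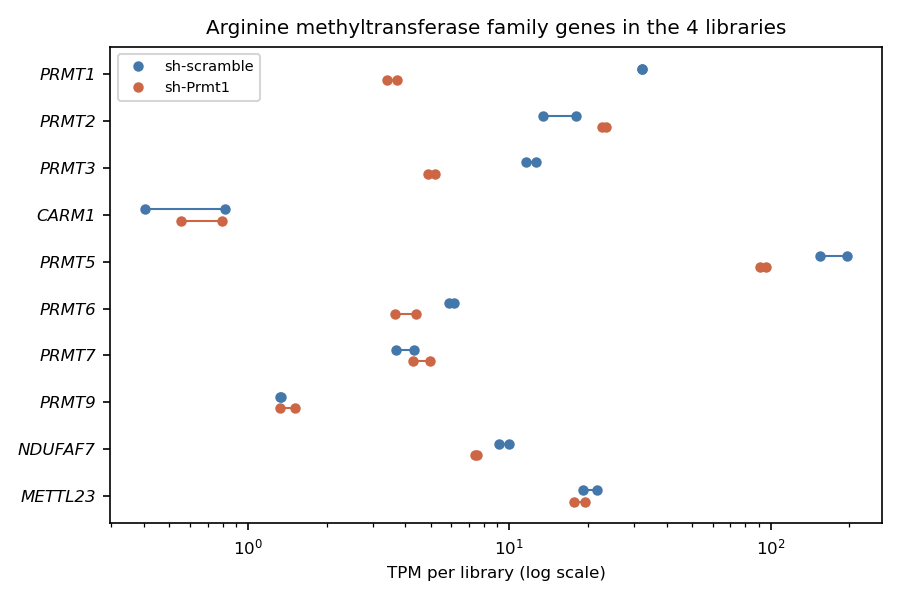
TPM (log axis) of the 10 tested arginine methyltransferase family genes, with 1 point per library and a line joining the 2 libraries of a group. PRMT1 shows the widest gap between groups, from about 32 TPM in sh-scramble to under 4 in sh-Prmt1, while the groups of CARM1, PRMT7, PRMT9 and METTL23 overlap.

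Beyond the targeted gene, the change was broad. Of 16354 tested protein_coding and lncRNA genes, 7177 (43.9%) were called, of which 3621 (22.1%) were called higher in sh-Prmt1 and 3556 (21.7%) lower. On the log2(TPM + 1) scale, limma called 3398 higher and 1785 lower, so that the share of calls that were higher moved from 50.5% to 65.6%. DESeq2 moved it the other way, with 2431 higher and 3454 lower (41.3% higher). The effective length offset did so too, with 2797 higher and 3360 lower (45.4% higher). Which direction had more calls thus depended on the setting. The median log2 fold change of all tested genes was 0.04, with 5th and 95th percentiles of -1.16 and 1.31. Most called changes were modest: the median was 0.70 among genes called higher and -0.70 among those called lower. Changes of at least 2-fold were called for 1075 genes higher (6.57%) and 979 lower (5.99%). Of genes changed at least 4-fold, 261 were higher and 123 lower, and at 8-fold there were 64 and 23.

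Protein_coding genes were called more often than lncRNA genes. Among 13213 protein_coding genes, 3266 (24.7%) were higher and 3100 (23.5%) lower. Among 3141 lncRNA genes, 355 (11.3%) were higher and 456 (14.5%) lower, and called lncRNA genes had larger folds, with medians of 1.16 and -1.16. With tested genes in 5 equal bins by level, lncRNA genes made up 49.6% of the lowest bin and 1.38% of the highest. In the lowest bin every call was at least 2-fold. The part of level in these differences between gene types was not tested. Called changes of at least 2-fold made up 6.81% (higher) and 8.88% (lower) of tested lncRNA genes and 6.52% and 5.3% of tested protein_coding genes. The count of lncRNA genes called higher was 205 without sh-Prmt1 replicate 1 and 227 without sh-Prmt1 replicate 2.

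**Figure D2:**
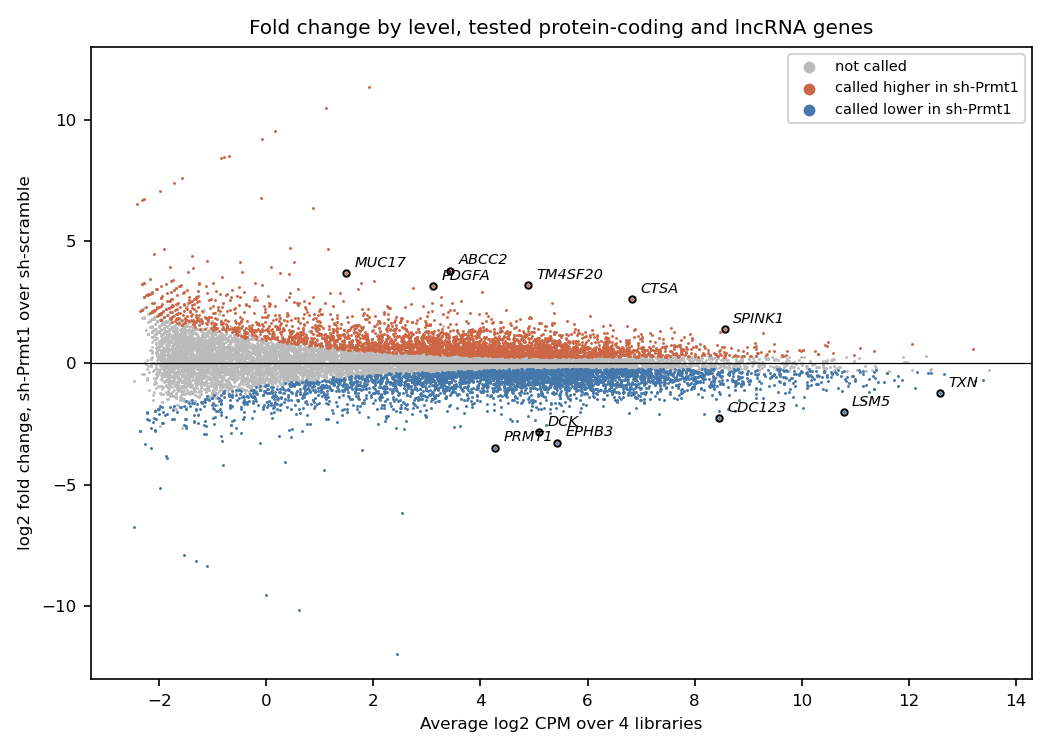
Log2 fold change of sh-Prmt1 over sh-scramble against average log2 CPM for the 16354 tested genes, coloured by call, with 12 genes circled and named. Called genes lie on both sides at every level, folds beyond 8 are found mostly among genes of low level, and abundant genes such as TXN and LSM5 lie on the lower side.

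The direction of the calls varied with the level of the gene. The tested genes were divided by average level into 5 bins of equal size. In the lowest bin, 9.6% of genes were called higher and 4.74% lower. In the highest bin, 20.5% were called higher and 40.8% lower. The same tilt appeared at the lower end of detection: 11856 and 11231 member genes were at 0 counts in the sh-scramble libraries against 7712 and 7919 in sh-Prmt1. Genes with a mean TPM above 0 and under 0.1 took 0.0811% and 0.0783% of all counts in the controls and 0.152% and 0.13% after knockdown. The part of this shift in any single gene's change was not tested, and it stands beside every gene group below that is made of abundant or scarce genes.

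**Figure D3:**
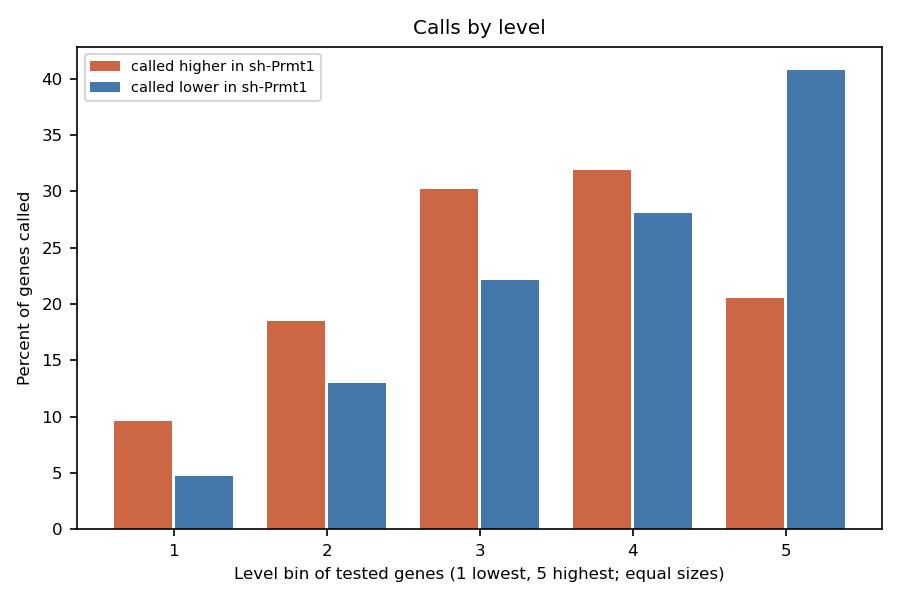
Percent of tested genes called higher or lower in sh-Prmt1 in each of 5 equal bins of average level, from the lowest (1) to the highest (5). In bins 1 to 4 more genes were higher than lower, and in the bin of the most abundant genes 40.8% were lower against 20.5% higher.

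The largest falls among protein_coding genes included receptors, nucleotide enzymes and cell cycle genes. EPHB3, an ephrin receptor of the crypt base that is a known WNT target, went from 69.1 and 87.4 CPM to 7.54 and 8.59, a 9.68-fold fall (log2 fold change -3.27 ± 0.13, SE, n = 2; edgeR adjusted p = 1.64e-06). DCK, the deoxycytidine kinase that activates nucleoside drugs, went from 55.2 and 64.7 CPM to 6.89 and 9.81 (-2.83 ± 0.16; edgeR adjusted p = 5.17e-06). CCNE2, a cyclin of entry into S phase, went from 39.1 and 58.4 CPM to 9.76 and 11.8 (-2.18 ± 0.18; edgeR adjusted p = 2.16e-05). For each of these 3 genes the lower control was at least 3 times the higher knockdown library in CPM.

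Lipid, translation and RNA export genes were also among the 15 largest falls. ELOVL6, a fatty acid elongase, went from 55.0 and 53.9 CPM to 9.44 and 12.1 (-2.33 ± 0.12; edgeR adjusted p = 4.76e-06). CDC123, an assembly factor of the translation initiation factor eIF2, was abundant at 585 and 573 CPM and fell to 124 and 119 (-2.26 ± 0.09; edgeR adjusted p = 1.64e-06). THOC7, a subunit of the THO complex that couples transcription to mRNA export, went from 250 and 277 CPM to 55.1 and 68.0 (-2.10 ± 0.12; edgeR adjusted p = 5.17e-06). Others in this set were the apoptosis inhibitor FAIM2 (-2.63), the alarmin cytokine IL33 (-2.59), CMTM4, which stabilises PD-L1 at the cell surface (-2.58), the imprinted gene MEST (-2.55), ART3 (-2.39), the testis lactate dehydrogenase LDHC (-2.39), the deubiquitinase USP12 (-2.29) and the focal adhesion gene TNS4 (-2.10). Every one of these 15 falls was called under all 14 alternative settings. LSM5, a subunit of the ring that binds U6 snRNA and of the mRNA decay ring, was picked out after its values were seen because of its level: it went from 2775 and 2857 CPM to 617 and 766 (-2.03 ± 0.12; edgeR adjusted p = 5.96e-06).

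The largest rises were led by a transporter and a tetraspan membrane protein. ABCC2 (also called MRP2), an apical efflux pump for conjugated drugs and bilirubin, went from 1.51 and 1.34 CPM to 19.4 and 20.3, a 13.9-fold rise (3.80 ± 0.15, SE, n = 2; edgeR adjusted p = 1.53e-06). TM4SF20, a tetraspan membrane protein, went from 5.47 and 6.06 CPM to 51.6 and 55.0, a 9.22-fold rise (3.21 ± 0.10; edgeR adjusted p = 1.01e-06). PDGFA, a growth factor for mesenchymal cells, went from 1.70 and 1.72 CPM to 16.6 and 14.2 (3.17 ± 0.16; edgeR adjusted p = 4.23e-06). The replicates of each group were close for all 3, and the groups were far apart.

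Lysosomal, metal-binding and antiproliferative genes followed. CTSA, the lysosomal protective protein that keeps beta-galactosidase and neuraminidase stable, was the most abundant of the 15 rises and went from 31.1 and 32.0 CPM to 211 and 181 (2.63 ± 0.10; edgeR adjusted p = 1.53e-06). BIN1, a membrane-bending protein that binds MYC, went from 11.3 and 13.5 CPM to 74.4 and 61.7 (2.45 ± 0.13; edgeR adjusted p = 4.51e-06). BTG2, an antiproliferative gene whose product binds PRMT1 and the CCR4-NOT deadenylase, went from 3.69 and 4.24 CPM to 18.4 and 18.2 (2.20 ± 0.13; edgeR adjusted p = 5.96e-06). MEIS2, a homeobox factor, was the least even, going from 1.83 and 3.07 CPM to 11.2 and 21.5 (2.73 ± 0.32; edgeR adjusted p = 0.000142). The metallothioneins MT1G (2.92), MT1E (2.40) and MT1F (2.14), which bind zinc and copper, also rose, though they resemble each other and other family members in sequence, so reads could be split between them. The syntenin paralog SDCBP2 (2.54), the collagen processing enhancer PCOLCE2 (2.47), the tubulin gene TUBB2A (2.47, with a near-identical copy in TUBB2B), PNMA1 (2.19) and the selenium carrier SELENOP (2.18) completed the set. Every one of the 15 rises was called under all 14 alternative settings.

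**Figure D4:**
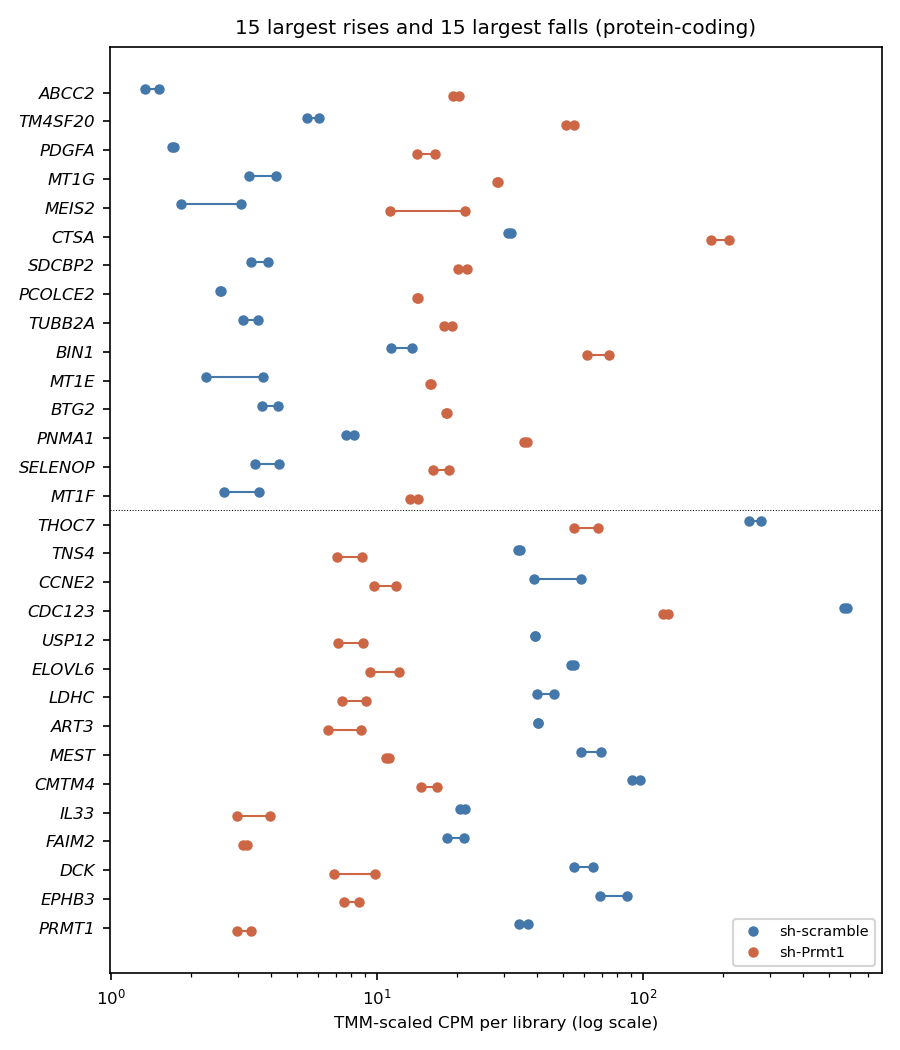
TMM-scaled CPM (log axis) in each library for the 15 largest rises (above the dotted line) and 15 largest falls (below it) among called protein_coding genes whose average log2 CPM reached 3. In all 30 genes the 2 sh-Prmt1 libraries lie on one side of the 2 sh-scramble libraries, from PRMT1 at the bottom to ABCC2 at the top.

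Among lncRNA genes of average log2 CPM 1 or more, the falls were led by AC025154.2, which went from 6.18 and 6.89 CPM to 0.374 and 0.687 (log2 fold change -3.58 ± 0.26, SE; edgeR adjusted p = 1.33e-05). LINC00239 went from 10.8 and 10.1 CPM to 1.59 and 1.57 (-2.73 ± 0.16; edgeR adjusted p = 5.55e-06), and the lncRNA entry of SFTA3, a symbol that a protein_coding entry shares, from 8.09 and 7.71 CPM to 1.17 and 2.10 (-2.25 ± 0.24). AL023803.1 (-2.30) kept its call under all settings, while AC127459.1 (-2.31) lost its call without sh-scramble replicate 2, under DESeq2 and on 2 further scales. AC127459.1 was uneven, with 85 and 218 counts in the controls and 0 and 80 in sh-Prmt1. Its log2 fold change was -1.42 without sh-Prmt1 replicate 1 and -10.26 without sh-Prmt1 replicate 2. In the authors' deposited table it was -0.05. On the rising side, AC009088.3 was the most abundant, going from 14.8 and 16.9 CPM to 73.5 and 59.8 (2.07 ± 0.12; edgeR adjusted p = 5.59e-06). AC002463.1 (4.69), LINC02582 (2.35) and DGCR11 (2.09) also rose. Nothing in the sources used here says that the libraries kept strand, so reads of an lncRNA that overlaps another gene cannot be told apart from reads of that gene.

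Some called genes had no count at all in one group. Among genes at 0 in both sh-scramble libraries and called higher, 7 were protein_coding and 6 were lncRNA. Among genes at 0 in both sh-Prmt1 libraries and called lower, 1 was protein_coding and 6 were lncRNA. Such genes pass the filter on low counts only through the group where they are high, so their calls are no separate support. More member genes were at 0 in the sh-scramble libraries (11856 and 11231) than in sh-Prmt1 (7712 and 7919). The part of that difference in these counts was not tested. H2AC18, a replication-type histone H2A gene with a near-identical neighbour, had 389 and 311 counts in sh-Prmt1 and was at least 111-fold higher, against a floor of 3 counts per library. The lncRNA AL355075.3 had 127 and 284 counts in sh-Prmt1 and was at least 60.7-fold higher. UGT1A5, a glucuronosyltransferase that shares its last exons with all UGT1A genes, had 140 and 55 counts and was at least 32.4-fold higher. RBP2, the intestinal retinol carrier, had 61 and 31 counts and was at least 15.1-fold higher. The protein_coding locus AC009412.1 went the other way, from 785 and 61 counts to 0, and was at least 160-fold lower by the mean of its controls. Those controls differed from each other by a wide margin, and the bound rests mostly on sh-scramble replicate 1. All of these bounds set the mean of the 2 libraries with counts against the floor, so they do not hold for each library alone. Where a gene shares sequence with another, an estimate of 0 can reflect how reads were divided. These 5 genes were chosen after their values were seen.

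Genes of splicing factors and hnRNP proteins, a well known class of PRMT1 substrates, fell. Of 30 tested splicing factors and hnRNP genes, 24 fell and 0 rose, with a median log2 fold change of -0.51 against 0.04 over all tested genes. RBMX, an hnRNP that binds nascent transcripts, went from 1298 and 1100 CPM to 542 and 588 (-1.08 ± 0.11, SE; edgeR adjusted p = 6.38e-05). SRSF2, a serine and arginine rich splicing factor, went from 297 and 366 CPM to 151 and 164 (-1.07 ± 0.11; edgeR adjusted p = 7.92e-05). SRSF6 was uneven between controls at 454 and 724 CPM, fell to 299 and 242 (-1.12 ± 0.19; edgeR adjusted p = 0.00126), and lost its call on the TPM scale. Of the 30 genes, 27 belong to the highest level bin, where 40.8% of genes were called lower. On the log2(TPM + 1) scale 12 fell and 1 rose.

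**Figure D5:**
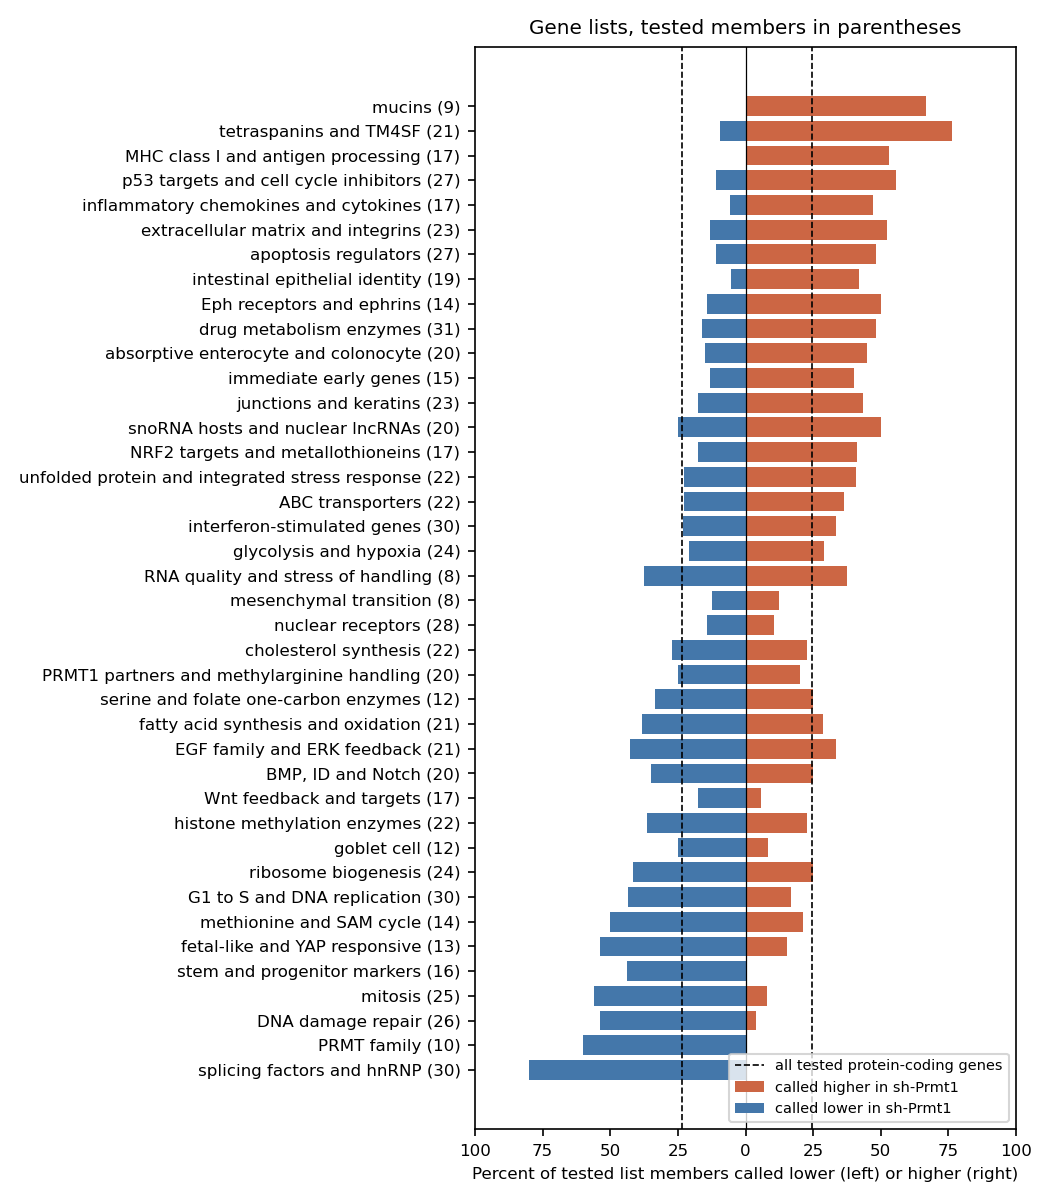
Percent of tested members called higher (right) or lower (left) in sh-Prmt1 for each list with at least 8 tested members, with the number tested in parentheses and dashed lines at the shares of all tested protein_coding genes (24.7% and 23.5%). Splicing factors, the PRMT family, DNA repair and mitosis lie on the lower side, and mucins, tetraspanins, antigen processing and p53 targets on the higher side.

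Partners and readers of methylarginine were called at shares near the background. Of 20 tested, 4 rose (20%) and 5 fell (25%), against 24.7% and 23.5% of all tested protein_coding genes. Those shares serve as background for the lists of protein_coding genes below as well. G3BP1, a stress granule nucleator and PRMT1 substrate, went from 310 and 319 CPM to 110 and 125 (log2 fold change -1.42 ± 0.10, SE; edgeR adjusted p = 9.2e-06). TDRD3, a Tudor domain reader of asymmetric dimethylarginine, went from 15.7 and 15.1 CPM to 7.19 and 6.69 (-1.15 ± 0.12; edgeR adjusted p = 7.93e-05). SMN1, whose Tudor domain reads methylarginine on Sm proteins, fell by 1.28 on the log2 scale, though its copy SMN2 is nearly identical and the split of reads is uncertain. DDAH2, a homologue of the enzyme that degrades free dimethylarginine, rose from 11.7 and 10.4 CPM to 23.7 and 21.2 (1.02 ± 0.11; edgeR adjusted p = 0.000105), and BTG1, the partner of PRMT1 related to BTG2, rose by 0.46.

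Ribosome biogenesis genes were mixed, with 6 of 24 higher (25%) and 10 lower (41.7%). RRN3, the initiation factor of RNA polymerase I, fell from 66.4 and 72.6 CPM to 19.3 and 22.8 (-1.72 ± 0.10; edgeR adjusted p = 6.12e-06), and NOP58, a core protein of box C/D snoRNPs, from 546 and 483 CPM to 303 and 319 (-0.72 ± 0.10). RRP9, which binds the U3 snoRNA, rose by 0.45. The count of falls was 4 on the TPM scale, and the count of rises was 3 without sh-scramble replicate 1, sh-scramble replicate 2 or sh-Prmt1 replicate 1. Of 20 snoRNA host genes and nuclear lncRNAs, 10 rose (50%) and 5 fell (25%), against 11.3% and 14.5% of all tested lncRNA genes. Of these 20 genes, 15 belong to the highest level bin, where 20.5% of genes were called higher and 40.8% lower. NEAT1, the scaffold RNA of paraspeckles, rose from 97.1 and 74.5 CPM to 182 and 220 (1.23 ± 0.14; edgeR adjusted p = 0.000107), SNHG16 rose from 78.7 and 87.4 CPM to 177 and 175 (1.08 ± 0.09), and SNHG12 fell from 16.2 and 16.4 CPM to 9.18 and 9.42 (-0.81 ± 0.11).

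Genes of DNA replication and mitosis fell more often than they rose, mostly by small amounts. Of 30 genes of the G1 to S transition, 13 fell and 5 rose. RRM2, the regulated subunit of ribonucleotide reductase, went from 238 and 230 CPM to 117 and 122 (log2 fold change -0.97 ± 0.08, SE; edgeR adjusted p = 3e-05), and RFC4, a clamp loader subunit, from 125 and 120 CPM to 62.4 and 61.6 (-0.98 ± 0.08; edgeR adjusted p = 2.41e-05). The G1 genes CDK6 (0.83), CCND3 (0.82) and CCND2 (0.64) rose, with CDK6 going from 58.4 and 60.6 CPM to 101 and 110. CCND1, the cyclin D gene known as a WNT target, was called lower at -0.79 from counts, but stood at -0.18 (adjusted p = 0.549) on the TPM scale and -0.39 (adjusted p = 0.259) with an effective length offset. The count of falls was 8 on the TPM scale.

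Of 25 mitotic genes, 14 fell and 2 rose, with a median of -0.31. KIF23, a kinesin of the central spindle needed for cytokinesis, went from 97.6 and 87.1 CPM to 22.9 and 28.2 (-1.85 ± 0.11; edgeR adjusted p = 6.45e-06). The other 13 falls lay between -0.57 (cyclin B2, CCNB2) and -0.26 (the kinase AURKA), the proliferation marker MKI67 at -0.36 among them, and 20 of the 25 genes belong to the highest level bin. The mitotic kinase PLK1 (0.47) and the kinesin KIF20A (0.49) rose. On the TPM scale 1 fell and 3 rose, with a median of -0.13 against 0.08 over all tested genes. Most of these falls were thus not called on that scale, though the median stayed negative.

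DNA repair genes fell more often than they rose. Of 26 DNA repair genes, 14 fell (53.8%) and 1 rose (3.85%), with a median of -0.28. BRCA1, the tumour suppressor of homologous recombination, went from 44.6 and 42.4 CPM to 15.4 and 17.7 (-1.39 ± 0.10, SE; edgeR adjusted p = 1.18e-05). RAD51C, a recombination gene, went from 36.4 and 36.7 CPM to 13.3 and 12.3 (-1.51 ± 0.09; edgeR adjusted p = 6.45e-06). BARD1, the partner of BRCA1, was called lower at -1.12 from counts and stood at 0.09 on the TPM scale, so its direction was not fixed. The 1 rise, TP53BP1 (0.44), lost its call without sh-scramble replicate 2 (adjusted p = 0.0847) or sh-Prmt1 replicate 1 (0.0503). The count of falls was 9 on the TPM scale.

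Inhibitors of the cell cycle and p53 targets rose more often than they fell. Of 27 tested, 15 rose (55.6%) and 3 fell (11.1%), with a median of 0.50. CDKN2A, which encodes the inhibitors p16 and p14ARF, was scarce and went from 0.674 and 0.448 CPM to 2.34 and 2.82 (2.21 ± 0.30, SE; edgeR adjusted p = 0.000352). Its neighbour CDKN2B went from 0.944 and 0.778 CPM to 3.85 and 3.15 (2.02 ± 0.25; edgeR adjusted p = 0.000181). CDKN1A, which encodes p21 and was picked after its values were seen, went from 31.1 and 30.9 CPM to 42.6 and 39.5 (0.41). The p53 regulator MDM2 (-0.44), the repair gene DDB2 (-0.72) and CCNG1 (-0.36) were the falls, and each lost its call on the TPM scale, CCNG1 also without sh-Prmt1 replicate 1 (adjusted p = 0.0786). The list had 5 falls without sh-scramble replicate 1 and 5 without sh-scramble replicate 2.

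Of 27 apoptosis regulators, 13 rose and 3 fell. BCL2L11, which encodes the death activator BIM, went from 8.44 and 7.78 CPM to 28.1 and 28.7 (1.81 ± 0.10; edgeR adjusted p = 5.55e-06), and BMF, a second BH3-only gene, from 0.324 and 0.566 CPM to 2.24 and 2.43 (2.37 ± 0.33; edgeR adjusted p = 0.000383). The survival gene BIRC3 rose too, from 7.20 and 5.28 CPM to 26.9 and 23.4 (2.01 ± 0.15; edgeR adjusted p = 1.6e-05). The survival genes MCL1 (-0.42) and BIRC2 (-0.40) were among the falls, and MCL1 missed the test on the TPM scale.

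Genes of intestinal epithelial identity were expressed in both groups, with 8 of 19 tested identity genes higher and 1 lower. CDH17, the liver-intestine cadherin, rose from 176 and 163 CPM to 321 and 331 (0.95 ± 0.09, SE; edgeR adjusted p = 4.27e-05), and ELF3, an epithelial ETS factor, from 75.7 and 74.7 CPM to 146 and 134 (0.90 ± 0.09). Without sh-scramble replicate 1, 2 identity genes were lower. In bulk libraries, a change in the number of cells of a type and a change in RNA per cell cannot be told apart.

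From counts, stem cell genes, EPHB3 among them, were called lower more often than higher, while WNT target genes gave few calls. Of 16 stem and progenitor genes, 7 fell (43.8%) and 0 rose, against 23.5% of all tested protein_coding genes called lower. On the log2(TPM + 1) scale 3 fell and 2 rose, with a median of -0.05 against 0.08 over all tested genes. With 50 counts required in every library of a group, 6 fell and 2 rose among 13. Fewer fell without sh-scramble replicate 2 or without sh-Prmt1 replicate 1, and 2 of the calls held under all alternatives. CDCA7, a MYC-regulated chromatin gene, went from 263 and 338 CPM to 118 and 134 (-1.25 ± 0.13, SE; edgeR adjusted p = 6.49e-05). Without sh-scramble replicate 1, 1 rose. LGR5, the R-spondin receptor of crypt stem cells, went from 29.8 and 35.3 CPM to 20 and 20.6 (-0.68 ± 0.10; edgeR adjusted p = 0.000702), and stood at -0.42 (adjusted p = 0.0639) on the TPM scale. SMOC2, a second stem cell gene, was near the floor and lost its call without sh-scramble replicate 2 (adjusted p = 0.0633) or sh-Prmt1 replicate 1 (0.0985). Of 17 WNT feedback genes and targets, 3 fell and 1 rose, a share no higher than the background, and with upper-quartile factors the rises numbered 2. On the log2(TPM + 1) scale 1 fell and 3 rose, and the median went from -0.10 to 0.05, so the list's direction was not fixed. TDGF1, a co-receptor of NODAL, went from 31.0 and 29.9 CPM to 11.4 and 9.91 (-1.52 ± 0.11; edgeR adjusted p = 1.08e-05), and LEF1, a WNT effector, from 6.10 and 6.13 CPM to 13.9 and 12.2 (1.10 ± 0.13; edgeR adjusted p = 0.000169). AXIN2, the feedback scaffold most used to read WNT activity, stood at 45 and 47.5 CPM in the controls and at 43.5 and 42.7 after knockdown (-0.10) and did not pass. It was picked after its values were seen.

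Most called genes of the ephrin system were higher, unlike EPHB3. Of 14 tested receptors and ligands, 7 rose and 2 fell, and without sh-scramble replicate 2 the count of rises was 4. EFNA2, a ligand of EphA receptors, fell with EPHB3, from 21.8 and 22.5 CPM to 8.17 and 8.93 (-1.37 ± 0.11, SE; edgeR adjusted p = 1.89e-05). The ligand genes EFNB2 and EFNA1 rose, EFNB2 from 26.5 and 23.2 CPM to 50.3 and 56.7 (1.11 ± 0.10; edgeR adjusted p = 3.96e-05) and EFNA1 from 16.0 and 16.8 to 32.8 and 31.3 (0.97 ± 0.09). The receptor gene EPHA1 rose as well, from 2.94 and 3.47 CPM to 7.08 and 6.96 (1.13 ± 0.16).

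Absorptive cell genes rose in part: 9 of 20 tested were higher and 3 lower. The digestive brush border enzymes SI and ANPEP were scarce and rose, SI from 0.593 and 0.259 CPM to 2.24 and 2.45 (2.48 ± 0.37, SE; edgeR adjusted p = 0.000611) and ANPEP from 0.647 and 0.472 to 1.59 and 2.13 (1.74 ± 0.33; edgeR adjusted p = 0.00232). The fatty acid carrier FABP1 was the most abundant member, at 11647 and 13273 TPM in the controls and 10738 and 10149 TPM after knockdown, and was called lower from counts (-0.46) but not on the TPM scale. SLC5A1 (-0.61) and the chloride exchanger SLC26A3 (-0.32) were the other 2 falls. Neither passed on the TPM scale, and SLC26A3 also lost its call without sh-scramble replicate 1 (adjusted p = 0.057) or sh-Prmt1 replicate 1 (0.122).

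Secretory markers moved in both directions. Among 12 goblet cell genes 3 fell and 1 rose: ATOH1, the master factor of the secretory lineage, went from 8.01 and 8.63 CPM to 2.38 and 3.15 (-1.58 ± 0.17, SE; edgeR adjusted p = 0.000101), AGR2, a disulfide isomerase of mucin folding, from 1231 and 1096 to 444 and 533 (-1.25 ± 0.12; edgeR adjusted p = 4.02e-05), and the trefoil factor TFF1 rose from 9.76 and 9.08 to 24.2 and 23.4 (1.34 ± 0.11; edgeR adjusted p = 1.81e-05). REG4, a lectin, was the third fall (-0.96) and missed the test on the TPM scale. The rises numbered 4 without sh-scramble replicate 1 and 2 without sh-Prmt1 replicate 2, and the falls 5 without sh-scramble replicate 2. Of 5 tested Paneth cell genes, 4 rose and 1 fell, the fall being DEFA6 (-1.90), which lost its call without sh-scramble replicate 2 (adjusted p = 0.152) or sh-Prmt1 replicate 2 (0.141). LYZ (1.33), which encodes lysozyme, lost its call without sh-Prmt1 replicate 1 (0.115). SPINK1, a trypsin inhibitor that is also common in colorectal cancer, was the most abundant of them per length and rose from 212 and 201 CPM to 498 and 598 (1.41 ± 0.11; edgeR adjusted p = 1.61e-05), while the defensin DEFA5 was at 0 in every library. The 5 tested enteroendocrine and 3 tested tuft cell genes gave 0 calls by edgeR in either direction, and the other 12 enteroendocrine and 9 tuft cell genes were too low to test.

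Genes for surface glycoproteins, tetraspanins and the basement membrane rose more often than they fell. Of 21 tetraspanin and TM4SF genes, 16 rose and 2 fell, with a median of 0.58. TM4SF1, which organises surface receptors, went from 137 and 156 CPM to 313 and 361 (1.20 ± 0.11, SE; edgeR adjusted p = 3.23e-05), and TM4SF5 from 1.05 and 1.63 to 3.46 and 3.01 (1.26 ± 0.26; edgeR adjusted p = 0.0034). TSPAN8, a tetraspanin abundant in colorectal cancer, fell from 1525 and 1477 CPM to 790 and 831 (-0.89 ± 0.09; edgeR adjusted p = 7.72e-05). CD9 (-0.25) was the other fall and lost its call under 8 of the 14 alternatives, among them the removal of sh-scramble replicate 2 (adjusted p = 0.137) or of sh-Prmt1 replicate 1 (0.137) or 2 (0.126).

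Of 9 tested mucins, 6 rose and 0 fell, with a median of 1.26. MUC13, a transmembrane mucin of the gut, went from 39.9 and 40.3 CPM to 117 and 115 (1.54 ± 0.08, SE; edgeR adjusted p = 4.86e-06), and MUC17, the main membrane mucin of the brush border, from 0.378 and 0.377 to 4.06 and 5.72 (3.69 ± 0.28; edgeR adjusted p = 1.6e-05). The goblet cell mucin MUC2 was not among the rises and differed widely between controls, at 2.02 and 0.401 CPM, against 0.817 and 1.80. Of 23 matrix and integrin genes, 12 rose and 3 fell. The laminin chain genes LAMA3 and LAMB3, which anchor epithelia to the basement membrane, rose: LAMA3 from 2.99 and 3.04 CPM to 10.9 and 14.8 (2.09 ± 0.18; edgeR adjusted p = 2.55e-05) and LAMB3 from 12.6 and 10.5 to 40.2 and 42.1 (1.83 ± 0.11; edgeR adjusted p = 5.79e-06). The collagen receptor ITGA2 fell from 58.0 and 59.5 CPM to 21.7 and 26.4 (-1.29 ± 0.10; edgeR adjusted p = 2.1e-05). ITGA1 (-0.78) and ITGB1 (-0.41) were the other falls, and both missed the test on the TPM scale, ITGA1 also without sh-scramble replicate 2 (adjusted p = 0.067) or sh-Prmt1 replicate 1 (0.149).

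Tight junction genes moved against each other. Of 23 junction and keratin genes, 10 rose and 4 fell. CLDN2, a cation-permeable claudin of the crypt, fell from 11 and 10.1 CPM to 2.99 and 3.31 (-1.74 ± 0.15, SE; edgeR adjusted p = 2.51e-05). CLDN4, a sealing claudin, rose from 33.8 and 34.4 CPM to 82.5 and 78.2 (1.24 ± 0.08; edgeR adjusted p = 9.8e-06). The keratin genes KRT80 (1.44) and KRT7 (1.35) rose from low levels. Of 8 tested genes of mesenchymal transition, TGFBR2 (0.68) rose and TGFBI (-0.53) fell, the second not on the TPM scale, and without sh-scramble replicate 2 the rises numbered 3.

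Antigen presentation genes gave rises only, while interferon-stimulated genes were called in both directions. Of 17 tested MHC class I and processing genes, 9 rose and 0 fell, with a median of 0.64. HLA-B went from 49.4 and 48.9 CPM to 120 and 112 (1.23 ± 0.09, SE; edgeR adjusted p = 1.04e-05), HLA-C from 30.3 and 33.8 to 90.5 and 71.7 (1.34 ± 0.12; edgeR adjusted p = 3.48e-05) and HLA-F from 2.40 and 2.45 to 8.24 and 7.24 (1.67 ± 0.16; edgeR adjusted p = 5.12e-05). These genes are alike in sequence and vary between people, so the split of reads among them is uncertain. B2M, the shared light chain, picked after its values were seen, stood at 3705 and 3879 CPM in the controls and at 3731 and 4028 after knockdown (0.03) and did not pass. Each of the 9 rises was called under all alternatives.

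Of 30 interferon-stimulated genes, 10 rose and 7 fell, and 6 rose with an effective length offset. CXCL10 (-2.15) lost its call without sh-scramble replicate 1 (adjusted p = 0.153) or sh-Prmt1 replicate 2 (0.107). CXCL11, an interferon-induced chemokine, fell from 7.31 and 7.29 CPM to 1.05 and 1.46 (-2.52 ± 0.20, SE; edgeR adjusted p = 1.8e-05), and IFITM2, which blocks viral entry, from 2.67 and 2.31 to 0.887 and 0.757 (-1.60 ± 0.27; edgeR adjusted p = 0.0011). IFI27 rose from 6.39 and 5 CPM to 15.2 and 19.3 (1.60 ± 0.17; edgeR adjusted p = 7.18e-05), and IRF1, a transcription factor of antigen presentation genes, from 4.5 and 5.07 to 12.1 and 10.7 (1.25 ± 0.14; edgeR adjusted p = 0.000121). Of 17 inflammatory genes, 8 rose and 1 fell. The NF-kappa B genes RELB and TNFAIP3 rose, RELB from 0.755 and 0.778 CPM to 3.29 and 2.87 (2.00 ± 0.25; edgeR adjusted p = 0.000192) and TNFAIP3 from 2.54 and 1.93 to 6.05 and 6.16 (1.45 ± 0.19; edgeR adjusted p = 0.000229). The fall was PIGR, the immunoglobulin carrier, at -1.76, which lost its call without sh-Prmt1 replicate 1 (adjusted p = 0.0673), and without sh-scramble replicate 1 there were 2 falls.

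Drug metabolism genes rose more often than they fell. Of 31 tested drug metabolism enzymes, 15 rose and 5 fell, with 12 of the rises at least 2-fold, against 6.52% of all tested protein_coding genes. UGT2B7, which glucuronidates opioids and steroids, went from 1.97 and 2.88 CPM to 8.43 and 9.26 (1.86 ± 0.19, SE; edgeR adjusted p = 6.97e-05), and CYP4F12, a fatty acid hydroxylase, from 0.863 and 1.08 to 4.53 and 3.21 (1.98 ± 0.26; edgeR adjusted p = 0.000282). AKR1C3, a steroid and prostaglandin reductase, fell from 398 and 353 CPM to 153 and 161 (-1.26 ± 0.10; edgeR adjusted p = 1.59e-05). UGT1A6 (-1.08) and UGT1A8 (-0.88) fell, with the caution on shared exons given for UGT1A5. CYP4F2 was close to the floor and lost its call without sh-scramble replicate 2 (adjusted p = 0.0619) or sh-Prmt1 replicate 1 (0.0593). NR1I2, the xenobiotic sensor PXR, rose from 6.53 and 4.65 CPM to 12.1 and 11.2 (1.06 ± 0.17; edgeR adjusted p = 0.000837), while 28 tested nuclear receptors gave 3 rises and 4 falls. NR2F6, an orphan receptor, had the largest fall among them, from 38.9 and 43.3 CPM to 13.4 and 13.8 (-1.60 ± 0.10; edgeR adjusted p = 6.16e-06).

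Of 22 tested ABC transporters, 8 rose (36.4%) and 5 fell (22.7%). ABCG2, the breast cancer resistance protein, rose from 0.701 and 1.63 CPM to 5.63 and 5.35 (2.22 ± 0.30, SE; edgeR adjusted p = 0.000343), and ABCC5, a cyclic nucleotide pump, from 6.45 and 5.78 to 15.4 and 15.4 (1.33 ± 0.13; edgeR adjusted p = 4.48e-05). ABCA1, the cholesterol exporter, fell from 7.5 and 10.2 CPM to 4.11 and 3.08 (-1.31 ± 0.20), a call lost on the TPM scale. The falls numbered 1 on the TPM scale, 3 without sh-scramble replicate 2 and 2 without sh-Prmt1 replicate 1.

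Of 14 genes of the methyl donor cycle, 7 were lower and 3 higher from counts, against 4 lower and 4 higher on the TPM scale. MTAP, which salvages methionine and whose substrate inhibits PRMT5, went from 41.2 and 41.0 CPM to 12 and 13.9 (-1.66 ± 0.10, SE; edgeR adjusted p = 6.21e-06). The polyamine enzymes AMD1, which uses S-adenosylmethionine, and SMS fell, AMD1 from 342 and 310 CPM to 174 and 189 (-0.85 ± 0.09; edgeR adjusted p = 0.000105) and SMS from 157 and 161 to 103 and 104 (-0.62 ± 0.08). SRM, the spermidine synthase between them, rose from 48.3 and 46.7 CPM to 81.7 and 69.9 (0.67 ± 0.10; edgeR adjusted p = 0.000462), and CTH, of cysteine synthesis, from 7.85 and 8.04 to 16.8 and 14.9 (0.99 ± 0.12). The falls numbered 4 without sh-Prmt1 replicate 1. The list of 12 serine and folate genes was split, with 3 higher (25%) and 4 lower (33.3%), and 0 of the falls were called on the TPM scale. Its rises included MTHFD2 (0.67) and ALDH18A1 (0.76), which the list held although it is not itself a serine or folate enzyme.

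Lipid genes were called in both directions. Of 22 cholesterol genes, 5 rose (22.7%) and 6 fell (27.3%), shares near the background. DHCR7, the last step of synthesis, rose by 0.99, and SC5D (-1.04), IDI1 (-0.89) and FDFT1 (-0.79) fell. SC5D, a desaturase of the same pathway, went from 128 and 156 CPM to 61.8 and 75.7. Among 21 fatty acid genes, 6 rose and 8 fell, with FADS1, a desaturase, falling with ELOVL6 from 75.2 and 72.6 CPM to 36.6 and 37.4 (-1.0 ± 0.08, SE; edgeR adjusted p = 2.23e-05). The fasting-responsive genes ANGPTL4 (2.41) and PDK4 (1.39) rose from low levels. The falls of the fatty acid list numbered 4 on the TPM scale, and the rises of the cholesterol list 3 without sh-scramble replicate 1, sh-scramble replicate 2 or sh-Prmt1 replicate 1.

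Stress and redox genes moved by member. TXN, the thioredoxin gene, was among the most abundant genes and fell from 8712 and 8691 CPM to 3159 and 4152 (-1.25 ± 0.14, SE; edgeR adjusted p = 8.96e-05). Its list holds NRF2 targets and metallothioneins, and of 17 tested members 7 rose and 3 fell, or 5 fell with RLE factors or a replicate block. The rises include MT1G, MT1E and MT1F, already given above with the caution on split reads. Of 22 genes of the unfolded protein and integrated stress response, 9 rose and 5 fell. ATF3 went from 1.11 and 1.30 CPM to 4.04 and 5.11 (1.93 ± 0.22; edgeR adjusted p = 0.000129) and CHAC1, a glutathione-degrading enzyme, from 1.81 and 1.25 to 4.58 and 4.30 (1.54 ± 0.22; edgeR adjusted p = 0.000482), whereas the co-chaperone DNAJC3 fell from 121 and 119 to 64.5 and 68.0 (-0.85 ± 0.08). Of 24 glycolysis and hypoxia genes, 7 rose and 5 fell, among them NDRG1, which rose from 9.36 and 10.2 CPM to 31.0 and 32.2 (1.69 ± 0.10; edgeR adjusted p = 5.9e-06). The falls numbered 1 on the TPM scale in each of the last 2 lists.

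Among signalling genes, ID1 (-0.53), ID2, ID3 and ID4, inhibitors of differentiation induced by BMP, fell: ID3 from 80.6 and 79.5 CPM to 36.2 and 37.5 (-1.12 ± 0.08, SE; edgeR adjusted p = 1.35e-05), ID4 from 20.2 and 25.1 to 9.48 and 11.2 (-1.13 ± 0.14) and ID2 from 132 and 122 to 66.1 and 76.7 (-0.83 ± 0.10). Their list of 20 BMP, ID and Notch genes gave 5 rises (25%) and 7 falls (35%). There were fewer rises without sh-scramble replicate 1 and 4 falls on the TPM scale. Of 21 EGF family and ERK feedback genes, 7 rose and 9 fell. The feedback inhibitors SPRED1 (-1.02) and SPRY4 (-0.84) fell, the phosphatases DUSP5 (1.44) and DUSP4 (2.09) rose from low levels, and the ligand gene EREG rose from 193 and 211 CPM to 324 and 368 (0.78 ± 0.10; edgeR adjusted p = 0.000241). The falls of this list numbered 3 on the TPM scale and 5 without sh-Prmt1 replicate 1.

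Of 15 immediate early genes, 6 rose and 2 fell, or 1 without sh-Prmt1 replicate 1. EGR1, the serum response factor target, fell from 7.09 and 8.02 CPM to 2.50 and 2.34 (-1.64 ± 0.16; edgeR adjusted p = 5.64e-05), and KLF2 rose from 1.32 and 1.39 to 5.42 and 5.34 (1.98 ± 0.19; edgeR adjusted p = 4.48e-05). Of 13 fetal-like and YAP-responsive genes, 7 fell and 2 rose. ANXA3, a calcium-dependent membrane binder, went from 142 and 140 CPM to 40.7 and 51.2 (-1.62 ± 0.11; edgeR adjusted p = 1.08e-05), and AMOTL2, a YAP target and inhibitor, from 12.7 and 12.1 to 5.39 and 6.59 (-1.04 ± 0.14), while CCN2, also called CTGF, rose by 0.77. MSLN, the mesothelin gene, was the other rise (2.54) and lost its call without sh-Prmt1 replicate 2 (adjusted p = 0.0709). The falls of this list numbered 4 on the TPM scale. Histone methylation enzymes gave 5 rises and 8 falls among 22, none of them 2-fold, and 0 falls on the TPM scale. The rises numbered 3 without sh-scramble replicate 1 or sh-Prmt1 replicate 2 and 1 without sh-scramble replicate 2 or sh-Prmt1 replicate 1, where the falls numbered 5 without sh-Prmt1 replicate 1.

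Markers of other cells were low in all libraries. The 15 stromal and endothelial markers summed to between 1.2 and 2.8 TPM per library, and 0 of the 5 tested were called by edgeR. The 16 immune and blood markers summed to 3 and 3.41 TPM in the controls and 9.01 and 9.71 after knockdown, with GZMA at 0 throughout and PTPRC, which marks leukocytes, at 1 and 1 counts in the controls and 7 and 4 after knockdown. HBB, the adult beta globin gene of red cells, had 2 and 1 counts in the controls and 116 and 222 after knockdown. Its rise was called, and HBA1, its alpha partner, had 0, 6, 8 and 10 counts. CD68 rose from 1.16 and 0.849 CPM to 3.76 and 3.21 (1.80 ± 0.25, SE; edgeR adjusted p = 0.000357) and CD14 fell from 2.35 and 2.31 to 0.817 and 0.881 (-1.45 ± 0.26; edgeR adjusted p = 0.00172). The part of these genes in the inflammatory and interferon values was not tested. Of 8 heat shock genes used to mark handling stress, 3 rose and 3 fell, none by 2-fold, with 1 fall without sh-Prmt1 replicate 1.

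Gene length, as Salmon weights it by the isoforms it assigns, was examined as a second measure. Of 5253 genes with at least 5 TPM in all libraries and a length that varied, limma called 0 at an adjusted p under 0.05 (smallest adjusted p = 0.0573, 0% called). At an unadjusted p under 0.05 there were 1165, of which 636 were longer in sh-Prmt1 (12.1%) and 529 shorter (10.1%). Restricted to genes of at least 20 TPM, limma called 71 of 2312, 45 longer (1.95%) and 26 shorter (1.12%). The following were picked after their values were seen. MVD, an enzyme of isoprenoid synthesis, had weighted lengths of 367 and 369 bases in the controls and 824 and 911 after knockdown, while its count did not change by the test (-0.18). WAPL, which releases cohesin from DNA, had 1493 and 1581 bases against 2417 and 2383. CD44, the hyaluronan receptor with many variable exons, had 2003 and 2004 bases against 1618 and 1651, with a count change of 0.04. The mitotic kinetochore gene CENPF had 1446 and 1443 bases against 1770 and 1792. The groups did not overlap for these 4 genes. They were taken from the 71 called at 20 TPM, so their separation is no further support. PRMT1 had 1203 and 1173 bases in the controls and 1132 and 1094 after knockdown.

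The authors' deposited table gave 2415 member genes higher and 3279 lower at its adjusted p under 0.05. Of its calls, 91.6% were also called here, and 72.7% of the calls here were in that table; 5218 genes were called in both, 5207 of them with the same sign. In the authors' deposited table, the log2 fold changes were -3.37 for PRMT1, -3.22 for EPHB3, 3.20 for ABCC2 and 3.08 for TM4SF20.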

How the data were processed

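The 4 knockdown files hold estimated counts, TPM and isoform-weighted lengths in bases for each gene, written by Salmon, per the file headers. Per the labels' protocols the libraries came from a custom Smart-seq2 preparation. The submitters' processing notes name Salmon, DESeq2 and mm10 without versions or roles, while all identifiers are human; the sources used here give no human build or annotation. Symbols and gene types came from the authors' deposited comparison, which also holds a log2 fold change and an adjusted p-value per gene and names 60236 of the 60237 identifiers. Sex-linked genes (245) were left out.

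Estimated counts were rounded and fitted with edgeR 4.0.16 in R 4.3.3 (TMM, filterByExpr, two-sided quasi-likelihood test, Benjamini-Hochberg over 18446 genes of all types, no replicate block). The biological coefficient of variation was 0.105. Replicates differed by more than counting noise (chi-square per degree of freedom 27.3 and 14.6) and each was counted as 1. Alternatives were RLE and upper-quartile factors, DESeq2 1.42.0, limma-voom (limma 3.58.1), no filter, 50 counts in every library of a group, an effective length offset, limma on log2(TPM + 1), fewer gene types, a replicate block and leaving out each library. The fit on log2(TPM + 1) used no TMM factors. Lengths were tested with limma on log2 values. The scripts were tested on simulated data. Named genes are PRMT1, EPHB3, ABCC2, TM4SF20, the PRMT family, the 15 largest rises and falls of protein_coding genes (average log2 CPM from 3 up), the 5 largest of lncRNA genes (from 1 up) and up to 3 called members of each list in each direction. The rule's largest length changes among called genes were empty, and other names were chosen after their values were seen. Members and lists were chosen with earlier results of these data known. Lists are described by counts and medians, with no list test. Sequences and coordinates of human genes were not used here. Some genes that the rule names are not reported here.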

Additional observations from a re-analysis of the deposited data

How the results depend on the processing

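Of 247 named genes, 175 kept their call and direction under every alternative fitted. Of 3450 pairs of gene and alternative, 155 lost the call, 7 gained it and 11 changed sign. The signs that changed were those of CARM1 (-0.02 with RLE factors and with fewer gene types, -0.03 with limma-voom, -0.04 with no filter, -0.06 with DESeq2 and with the effective length offset, between -0.32 and 0.33 leaving out 1 library, from 0.00), PRMT7 (-0.01 with the effective length offset), PRMT9 (0.05) and BARD1 (0.09), both on the TPM scale. PRMT1 remained called throughout.

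On the log2(TPM + 1) scale, genes called lower went to 1785, protein_coding genes called lower to 1442, and genes called at least 2-fold higher and lower to 532 and 332. DESeq2 gave 168 lncRNA genes higher and 656 genes at least 2-fold higher, and the effective length offset gave 220 lncRNA genes higher. Leaving out 1 library gave 205 to 306 lncRNA genes higher, 2565 to 2926 genes higher and 2958 to 3553 lower. The length test gave 71 calls at 20 TPM and 0 otherwise. The cause was not tested.

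With the replicate number as a block, 3370 genes were called higher and 3393 lower. In that fit PRMT2 was called higher (0.45, adjusted p = 0.04), and NDUFAF7 lost its call (adjusted p = 0.0602). Same-numbered libraries did not deviate together (correlation -0.051), so the numbers were not taken as a pairing. Depth limits scarce genes: in the lowest of 5 level bins, 9.6% were called higher and every such call was at least 2-fold.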

Other observations

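Gene families grouped by the start of their symbol, with at least 20 tested members each, gave further values. They were chosen after their values were seen. For comparison, 24.7% of all tested protein_coding genes were called higher and 23.5% lower, and 40.8% were lower in the bin of the most abundant genes. Of the mitochondrial ribosome genes, 12 of 29 MRPS genes (41.4%) were lower and 3 higher, and 20 of 49 MRPL genes (40.8%) were lower and 11 (22.4%) higher. Of 77 RPL and RPS genes, which encode the cytosolic ribosome, 33 fell (42.9%) and 10 rose, with a median log2 fold change of -0.18. Nuclear pore genes (NUP) gave 12 falls (54.5%) and 0 rises among 22. METTL genes, a family named for methyltransferases, gave 11 falls (52.4%) and 1 rise among 21. The METTL falls include METTL23, which was also counted above in the PRMT family.

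Solute carriers (SLC) gave 88 rises (34.2%) and 44 falls (17.1%) among 257, with a median of 0.18. Myosins (MYO) gave 11 rises and 1 fall among 20, cytochrome P450 genes (CYP) 11 rises and 2 falls among 26, and orphan receptors of the GPR family 11 rises and 1 fall among 31. Zinc finger genes (ZNF), the biggest family, gave 42 rises and 53 falls among 440. The near-identical pair SMIM11B and SMIM11A moved in opposite directions, SMIM11B from 11.2 and 12.2 CPM to 0.0701 and 0.229 and SMIM11A from 1.59 and 1.30 CPM to 6.87 and 4.54, and how reads were divided between them is uncertain.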
